A study of Cavia porcellus with 12 samples.

Results

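The miRNAs described here are miR-34a, miR-34c, miR-192 and miR-194, which are known to be induced by the tumour suppressor p53 after DNA damage. Members were the entries of 3 deposited tables that stand under the human precursors hsa-mir-34a, hsa-mir-34c, hsa-mir-192, hsa-mir-194-1 or hsa-mir-194-2. Each entry pairs a sequence with a precursor, and most miRNAs have many entries, which vary in length and in single bases. All 5 precursors were present in all 3 tables. They held 17 of 1610 entries in the 1 h table of DOX and DMSO, 13 of 1335 in the 22 h table, and 31 of 4979 in the table of DOX 22 h and DOX 1 h, called the third table. One of these 31, under hsa-mir-34c, was listed at 0, as were 2610 of the 4979, so shares of entries are not comparable between tables. Rows of the third table named for the mature miRNAs, such as hsa-miR-34a-5p, all stood at 0 and were not members.

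The cells were ventricular cardiomyocytes of adult female Hartley guinea pigs, isolated by enzymes on a Langendorff system and kept at room temperature. They received 10 µM doxorubicin (DOX), an anthracycline that damages DNA, or the vehicle DMSO, and exposure lasted 1 h or 22 h. Labels name 12 small RNA libraries in 4 groups of 3, and reads were aligned to human sequences. The means of the tables with DOX 22 h hold 1 set of reads a side, called a library here, so ratios drawn from them have no replicate check and compare libraries, not conditions. For 1 h only the mean over both groups was used and its reads could not be recovered, and the columns of the authors' own comparison were set aside, so no DOX to DMSO ratio is given at 1 h.

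In many cell types p53 binds near the genes of the miR-34 family and raises their transcription, and miR-34 in turn lowers proteins of the cell cycle and of survival. In heart muscle, miR-34a is known for rising with age and injury. In the human genome mir-192 lies beside mir-194-2, and mir-215, a close relative of mir-192, lies beside mir-194-1.

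The main sequences are shown because the results turn on where they begin and end, and on which precursor they stand under. For the miR-34 family, capitals mark the first 7 bases, which the sequences of both genes shared. For mir-192, the capital marks the extra base of entries that begin at position 25 of the precursor rather than at 26. For mir-194, the capital marks the base past a sequence of 20 bases that both precursors share. Own means only that the entry is listed under that precursor alone, and whether the base belongs to the precursor was not tested. The own entry of hsa-mir-194-1 had a mean of 15.1 at 1 h, against 382 for that of hsa-mir-194-2, and was not listed at 22 h. No reference of mature miRNAs was used here, so no seed is marked. The deposited sequences appear to begin inside the mature 5' end, which was not tested, so their first bases and start positions are those of the deposited entries and need not be those of the mature miRNA.
hsa-mir-34a, 20 bases: GCAGTGTcttagctggttgt
hsa-mir-34a, 21 bases: GCAGTGTcttagctggttgtt
hsa-mir-34c, 21 bases: GCAGTGTagttagctgattgc
hsa-mir-192, start 25: Gacctatgaattgacagcca
hsa-mir-192, start 26: acctatgaattgacagcca
hsa-mir-194-1, own: taacagcaactccatgtggaT
hsa-mir-194-2, own: taacagcaactccatgtggaA
hsa-mir-194-1 and hsa-mir-194-2, shared: taacagcaactccatgtgga

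Levels were the authors' means of normalized counts, pooled over both sides of a table, summed over the entries of an arm and set per 1000000 of the sum of the table (ppm). Values are given in the order 1 h, 22 h and the third table. These tables were normalized separately, and a pooled mean has no SD. miR-34a-5p stood at 89.2, 87.3 and 109 ppm. It ranked 147 of 342 measured arms, 144 of 315 and 132 of 423. miR-34a-5p was thus in the middle of the measured arms at 1 h and 22 h. miR-34c-5p, from another gene of the family, stood at 11.4, 4.55 and 9.21 ppm. The summed mean of miR-34a-5p was 7.84, 19.2 and 11.8 times that of miR-34c-5p. At 22 h hsa-mir-34c had only 1 listed entry, against 3 at 1 h. The entries listed at 1 h but not at 22 h had means of 11.5 and 11.2 at 1 h. The lowest mean used at 22 h was 10.02, against 0.441 above 0 in the third table. The value of 19.2 thus need not stand for a change of miR-34c-5p. An entry that is not listed is not thereby shown to be absent.

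miR-192-5p stood at 29.3, 28.4 and 32.9 ppm. miR-194-5p stood at 37.3, 29.7 and 34.1 ppm under hsa-mir-194-1, and at 99.9, 75.0 and 83.6 under hsa-mir-194-2. Over both precursors, miR-194-5p had 4.68, 3.69 and 3.57 times the summed mean of miR-192-5p. All member arms together made up 267, 225 and 269 ppm. A single 3p entry was listed, under hsa-mir-194-2 in the third table, with a mean of 3.34.

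**Figure D1:**
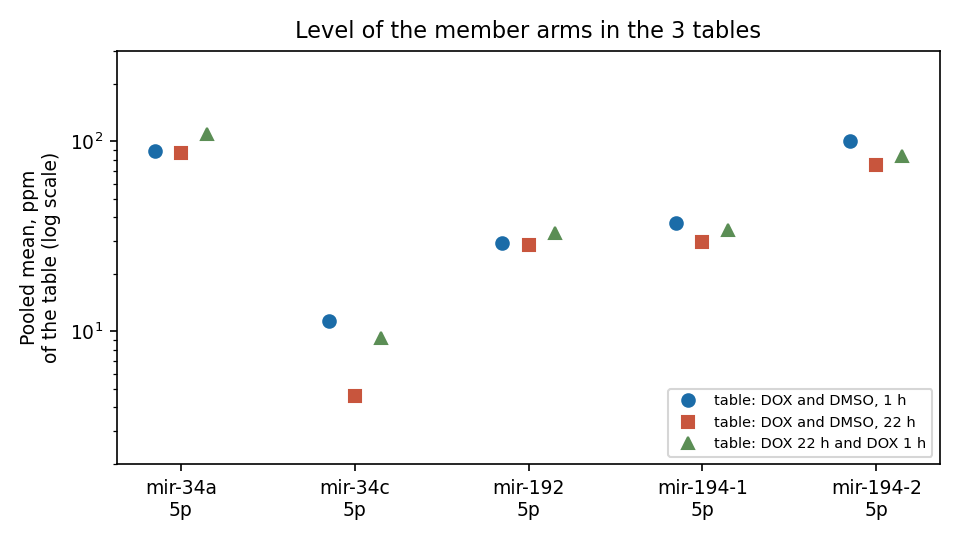
Pooled mean of each member 5p arm in ppm of its table, on a log axis, with 1 point for each of the 3 tables. Among these 5p arms, miR-34a-5p and miR-194-5p under mir-194-2 lie highest and miR-34c-5p lowest in every table.

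Whole reads of 3 libraries could be recovered from the means of the tables with DOX 22 h, with coefficients chosen from the values, for 13 of 13 member entries listed at 22 h. Over all miRNAs, 1216 of 1323 entries gave 1 solution, with 474736 reads for DOX 22 h, 440362 for DMSO 22 h and 623625 for DOX 1 h. The 107 entries with several solutions were the abundant ones, with means of at least 5104, and were left out. The means at 22 h summed to 4776593, so the recovered reads were a small part of these libraries. Backgrounds and totals of recovered reads below leave out the abundant entries. Intervals below are exact 95% intervals and cover counting error only. They do not cover the spread between cultures or animals. Reads and ratios of a member are those of its entries listed at 22 h. In the third table these entries held 99.6% of the summed mean of miR-34a-5p, 46.0% of miR-34c-5p, 72.8% of miR-192-5p, 93.2% of miR-194-5p under hsa-mir-194-1 and 99.6% under hsa-mir-194-2. The rest could not be divided into libraries and is left out, so ratios of miR-34c-5p and miR-192-5p cover only part of these miRNAs.

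hsa-mir-34a had 537 reads in the DOX 22 h library, 309 in DMSO 22 h and 785 in DOX 1 h. Scaled to the DOX 22 h library, the last values were 347.5 and 610.6 reads, so DMSO 22 h held the fewest and DOX 1 h the most. The log2 ratio was 0.63 (0.42 to 0.83) for DOX 22 h over DMSO 22 h, a fold of 1.55. It was -0.19 (-0.35 to -0.03) for DOX 22 h over DOX 1 h, an interval that held 0 when scaled by total recovered reads (-0.15, -0.32 to 0.01). Both entries of hsa-mir-34a, of 20 and 21 bases, gave nearly the same ratio at 22 h, 0.64 and 0.61. Over DOX 1 h they gave -0.23 (-0.44 to -0.03) and -0.10 (-0.37 to 0.16), so only the first interval lay below 0. The DOX 22 h library thus held more miR-34a-5p than DMSO 22 h, but not more than the DOX 1 h library. Without a recovered DMSO 1 h library, the effects of DOX and of time in culture cannot be told apart in the second ratio.

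The 1 entry of hsa-mir-34c listed at 22 h had 27 reads in DOX 22 h, 17 in DMSO 22 h and 23 in DOX 1 h. Its log2 ratios were 0.50 (-0.43 to 1.47) over DMSO 22 h and 0.59 (-0.26 to 1.46) over DOX 1 h. Both intervals held 0, so a difference of this entry was not detectable at this depth, and the other 3 entries above 0 in the third table were not compared.

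The 5 entries of hsa-mir-192 listed at 22 h had 141, 130 and 145 reads in DOX 22 h, DMSO 22 h and DOX 1 h. Their log2 ratios were -0.05 (-0.41 to 0.30) over DMSO 22 h and 0.32 (-0.02 to 0.67) over DOX 1 h, so both intervals held 0, though the second lay above it when scaled by total recovered reads (0.35, 0.01 to 0.70). By entry, 1 of the 5 had an interval over DMSO 22 h without 0, the form of 20 bases at position 25, with 0.91 (0.22 to 1.63). The share of all entries with such an interval is not given here, so this count has no background beside it. Reads that begin at position 25 numbered 95 of 141 in DOX 22 h, 63 of 130 in DMSO 22 h and 84 of 145 in DOX 1 h. These are shares of 67.4% (59.0 to 75.0), 48.5% (39.6 to 57.4) and 57.9% (49.5 to 66.1). The share at position 25 was thus highest in DOX 22 h, and its interval there did not overlap that of DMSO 22 h. Reads that begin at position 26 had a log2 ratio of -0.71 (-1.29 to -0.15) over DMSO 22 h, and those at position 25 one of 0.42 (-0.05 to 0.91). Over DOX 1 h these were -0.04 (-0.63 to 0.53) at position 26 and 0.54 (0.10 to 0.98) at position 25, where the interval at position 25 lay above 0. The entries with reads held 84.8% of the third table's summed mean at position 25 and 60.0% at position 26, so this comparison leaves out the rest. The entries at position 25 were not uniform, since the form of 19 bases had 11 reads in DOX 22 h and 21 in DMSO 22 h. Those at position 26 went opposite ways over DOX 1 h. The form of 19 bases had 0.67 (-0.22 to 1.57) and that of 21 bases -0.64 (-1.49 to 0.17). In the pooled means, position 25 made up 54.0%, 57.7% and 54.2% of miR-192-5p in the same order of tables. The split by start position was chosen after its values were seen, and no such shares of other miRNAs are given beside it.

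hsa-mir-194-1 had 158 reads in DOX 22 h, 127 in DMSO 22 h and 229 in DOX 1 h. Its log2 ratios were 0.15 (-0.20 to 0.49) over DMSO 22 h and -0.17 (-0.47 to 0.13) over DOX 1 h. hsa-mir-194-2 had 473, 255 and 526 reads, with log2 ratios of 0.72 (0.50 to 0.95) and 0.21 (0.03 to 0.39). The second interval held 0 when centred on the median of all entries (0.17, -0.02 to 0.35). Counted by precursor, the interval over DMSO 22 h lay above 0 for hsa-mir-194-2 and held 0 for hsa-mir-194-1. With each shared sequence counted once over both precursors, the value of hsa-mir-194-1 was 0.48. Counted so, the shared sequence of 20 bases had 0.52 (0.22 to 0.82), above 0, and that of 19 bases had 0.395 (-0.05 to 0.85). Yet all recovered reads of hsa-mir-194-1 were sequences that also stand under hsa-mir-194-2, and such reads cannot show which gene they came from.

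The shared sequence of 20 bases had 106 reads under hsa-mir-194-1 and 136 under hsa-mir-194-2 in DOX 22 h, 89 and 61 in DMSO 22 h, and 172 and 152 in DOX 1 h. The share under hsa-mir-194-1 was 43.8% (37.5 to 50.3), 59.3% (51.0 to 67.3) and 53.1% (47.5 to 58.6). The intervals of DOX 22 h and DMSO 22 h did not overlap. How reads of a shared sequence were divided between precursors is not given in the sources used here. Its log2 ratios under each precursor differed by 0.905, first among 97 sequences that stand under exactly 2 precursors, whose median difference was 0.158. This difference was 2.97 times its standard error for counting, and 7 of the 97 differences (7.22%) were past the 95% limit of that error, so an extreme picked from 97 is not shown to be a real difference in division. The shared sequence of 19 bases ranked 38, with a difference of 0.231. This comparison was chosen after its values were seen.

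Summed over both precursors, miR-194-5p had 631 reads in DOX 22 h, 382 in DMSO 22 h and 755 in DOX 1 h. Its log2 ratio was 0.55 (0.37 to 0.74) over DMSO 22 h and 0.10 (-0.05 to 0.26) over DOX 1 h. The entry found only under hsa-mir-194-2, which is free of the division, had 284, 161 and 327 reads and log2 ratios of 0.65 (0.37 to 0.94) and 0.16 (-0.08 to 0.39). This entry is part of that sum, so these measures are not independent. By both measures miR-194-5p was higher in DOX 22 h than in DMSO 22 h, while no difference from DOX 1 h passed counting error.

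**Figure D2:**
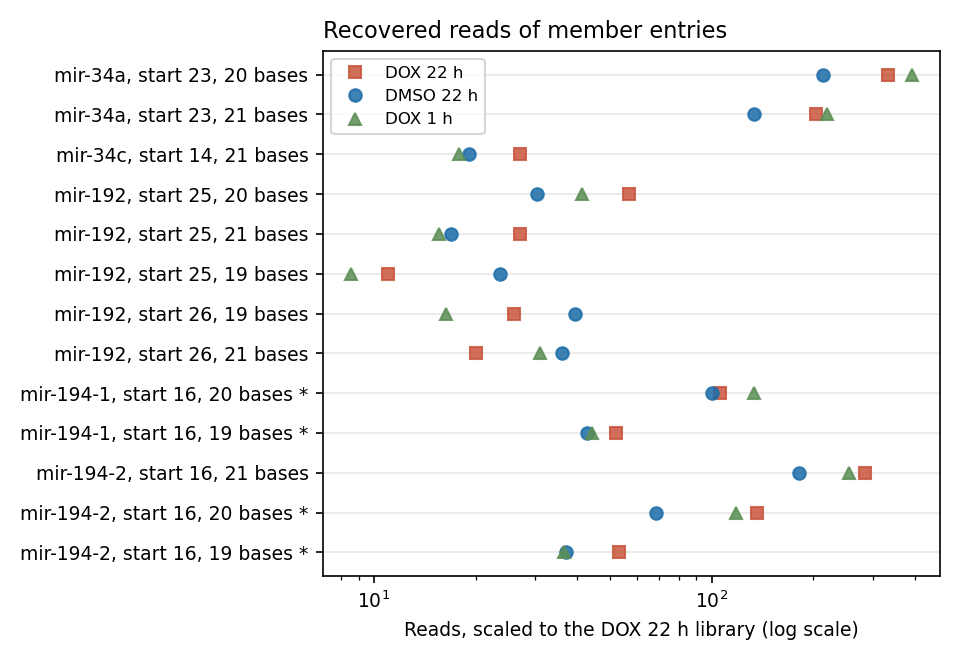
Recovered reads of the 13 member entries in 1 library each of DOX 22 h, DMSO 22 h and DOX 1 h, scaled to the DOX 22 h library, on a log axis. An asterisk marks a sequence that stands under both mir-194 precursors, and start is the position in the precursor.

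**Figure D3:**
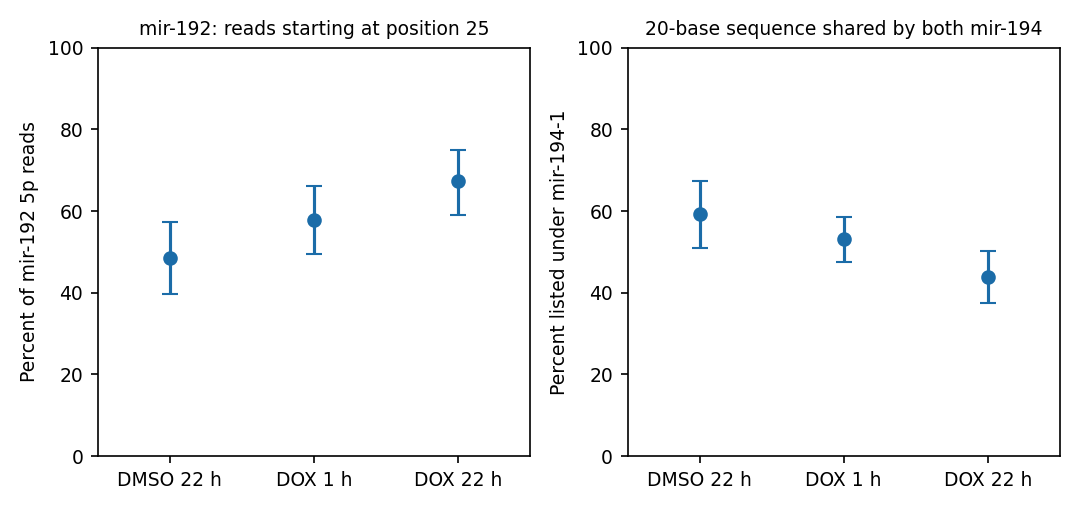
Percent of mir-192 5p reads that begin at position 25 (left) and percent of the shared 20-base sequence listed under mir-194-1 (right) in each library. Points are shares and bars exact 95% intervals for counting error. In both panels the intervals of DOX 22 h and DMSO 22 h do not overlap, but both comparisons were chosen after their values were seen. No start shares of other miRNAs are given beside the left panel. The sequence on the right had the largest difference of 97 and is not shown to differ in its division.

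Of the 13 member entries, 4 had an absolute log2 ratio at or over 0.8 for DOX 22 h over DMSO 22 h, the limit the study used, 2 higher and 2 lower in DOX 22 h. Among all recovered entries with 20 reads or more, 18.2% passed it, 10.8% higher and 7.40% lower. For DOX 22 h over DOX 1 h, 0 of the 13 passed, against 12.4% of all entries (8.49% higher and 3.95% lower). Of the 4, 3 were entries of hsa-mir-192 and 1 was the shared sequence under hsa-mir-194-2, and 0 of the 5 member arms passed the limit in either comparison. Over arms the background was 11.6% over DMSO 22 h and 7.17% over DOX 1 h, so a count of 0 among 5 is near it. The median log2 ratio of the members was 0.51 over DMSO 22 h, against 0.00 for all entries, and 0.23 over DOX 1 h, against 0.04. Over the summed reads of all members the log2 ratio was 0.50 (0.38 to 0.63) over DMSO 22 h and 0.01 (-0.10 to 0.11) over DOX 1 h, so the second median does not stand for a difference in their sum. The members share sequences and precursors, so these entries are not independent.

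**Figure D4:**
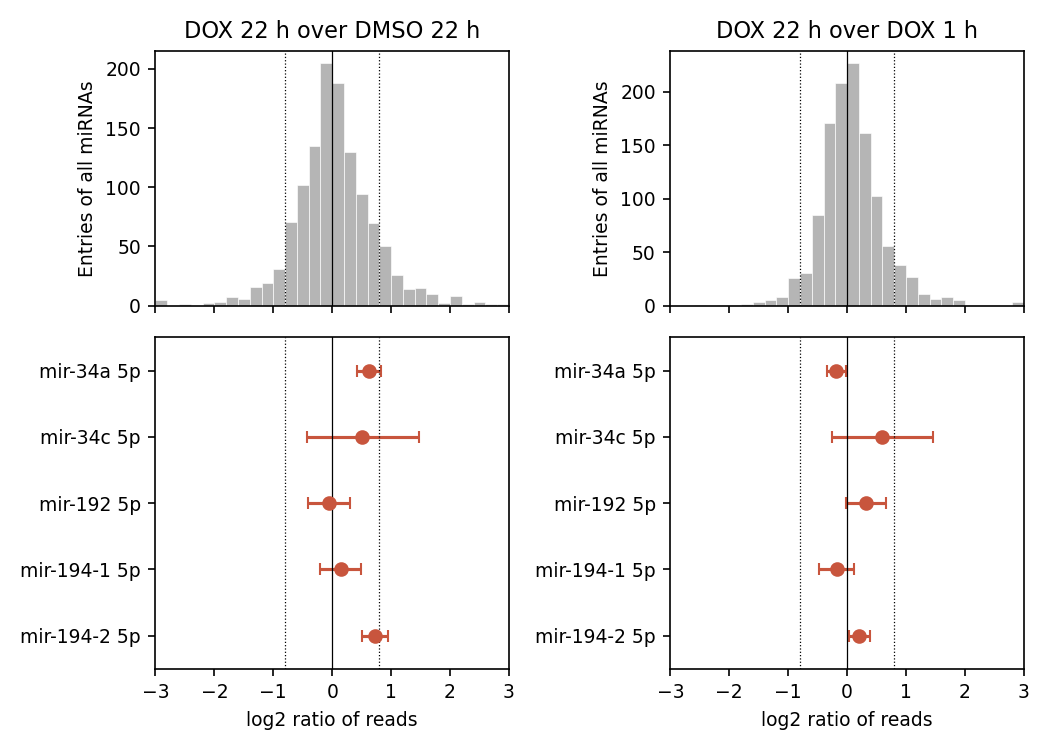
Log2 ratios of reads for DOX 22 h over DMSO 22 h (left) and over DOX 1 h (right). Upper panels count the recovered entries of all miRNAs with 20 reads or more, with values past the axis in the end bars. Lower panels give each member arm with its exact 95% interval for counting error, and dotted lines mark 0.8 in either direction, which no arm passed.

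Arms whose pair of ratios lay nearest to each member were named among 221 arms with at least 50 reads, over these 3 libraries. For miR-34a-5p they were hsa-mir-17-5p, hsa-mir-331-3p and hsa-mir-320a-3p, at distances of 0.122, 0.187 and 0.210 log2 units. For miR-192-5p they were hsa-mir-143-5p, hsa-mir-486-1-3p and hsa-mir-532-5p, at 0.0832, 0.0852 and 0.107. For hsa-mir-194-1 they were hsa-mir-660-5p, hsa-mir-656-3p and hsa-mir-379-5p, at 0.0271, 0.0402 and 0.0686. Those nearest to hsa-mir-194-2 were hsa-mir-330-3p, hsa-mir-378d-2-5p and hsa-mir-494-3p, at 0.0397, 0.0442 and 0.0617. Of these neighbours, hsa-mir-143 is itself on the list of p53-linked precursors below, and the others are on neither p53 list. miR-34c-5p had too few reads for this.

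Of 12 other precursors known to be induced or matured through p53, 6 had recovered reads, in 9 arms. Of these arms, miR-143-3p lacked 5 of its 6 entries and miR-145-5p and miR-22-3p 1 each, which had several solutions. The missing entry held 74.4% of the pooled mean of miR-145-5p and 97.1% of that of miR-22-3p at 22 h, so the ratios of these 3 arms rest on the remainder. The arms of hsa-mir-143 and hsa-mir-145 are also the smooth muscle marker arms described below. At 22 h, 0 of the 9 arms passed the limit, against 11.6% of 311 arms of all miRNAs, and their median log2 ratio was 0.23, which is the value of the incomplete miR-22-3p, against 0.02. miR-107 had a log2 ratio of 0.55 (0.46 to 0.64) over DMSO 22 h and miR-145-5p one of 0.35 (0.29 to 0.42), while miR-16-1-5p had -0.24 (-0.28 to -0.19). The 1 recovered entry of miR-143-3p had -0.74 (-0.79 to -0.69), the largest absolute value of the 9. This entry had 5385 reads in DOX 22 h and 8000 in DMSO 22 h, in an arm with a summed mean of 985630 at 22 h. Its ratio thus covers only a small part of miR-143-3p. The relatives nearest to the members were scarce: hsa-mir-34b had a mean of 6.17 and hsa-mir-215 one of 7.24, both in the third table alone. hsa-mir-200c was also listed there alone, and hsa-mir-141, hsa-mir-605 and hsa-mir-1246 were not listed. Over DOX 1 h, 0 of the 9 arms passed, against 7.17% of 307 arms, and their median was -0.17, the value of the incomplete miR-145-5p. With so few arms, a count of 0 is near the background in both comparisons.

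The second list held 5 precursors known to target the transcript of p53 itself, and all 5 had reads, in 7 arms. Of the 7 arms, 0 passed the limit in either comparison, which is near the background of 11.6% of 311 arms over DMSO 22 h and 7.17% of 307 over DOX 1 h. Their median log2 ratio was -0.22 over DMSO 22 h, against 0.02 for all arms, and -0.03 over DOX 1 h. The recovered entries of miR-125b-5p had log2 ratios of -0.63 (-0.74 to -0.51) under hsa-mir-125b-1 and -0.72 (-0.84 to -0.60) under hsa-mir-125b-2 over DMSO 22 h. In each, 3 entries had several solutions and were left out, so these ratios leave out its most abundant reads. The opposite arm, miR-125b-1-3p, was recovered in full and had 0.34 (0.17 to 0.51), so the arms of this precursor did not go the same way.

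All 7 cardiomyocyte markers were listed in every table, led by hsa-mir-1-2-3p, and together made up 335000 ppm at 1 h and 351500 at 22 h. Smooth muscle markers, led by hsa-mir-143-3p, made up 193590 and 209640 ppm. The endothelial hsa-mir-126 made up 44078 and 38272, and fibroblast markers, led by hsa-mir-199a-1-3p, 3891 and 2847. Leukocyte markers stood at 76.4 and 60.0 ppm, led by hsa-mir-142-5p, and erythroid markers at 78.6 and 23.6, led by hsa-mir-451a-5p. Epithelial markers stood at 59.0 and 20.9, led by hsa-mir-200a-3p at 1 h and by hsa-mir-200b-3p at 22 h, and the hepatocyte marker hsa-mir-122 was not listed. Markers of smooth muscle, endothelium and fibroblasts were therefore present in the RNA at levels above those of the members. Whether these miRNAs came from such cells or from the cardiomyocytes themselves was not tested. Over DMSO 22 h, 9 of 33 marker arms with reads had an interval above 0 and 6 below 0, and among the 24 recovered in full 5 lay above and 5 below. The share of all arms with an interval without 0 is not given here, so these counts have no background beside them. Of the cardiomyocyte markers, miR-208a-5p had a log2 ratio of 0.79 (0.64 to 0.95) and miR-208b-3p one of -0.48 (-0.53 to -0.43). Of the leukocyte markers, miR-142-3p had 0.92 (0.41 to 1.45) and miR-142-5p had -0.55 (-0.85 to -0.25). Arms of 1 marker list, and of 1 precursor, thus went both ways between these libraries. These arms were chosen after their values were seen. The part of other cell types in the ratios of the members was not tested, and fewer cells of a type cannot be told apart from less RNA per cell.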

How the data were processed

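Small RNA libraries were made with a TruSeq kit and sequenced on a HiSeq instrument. Per the submitters' processing notes, reads were processed in the BaseSpace Small RNA application (version 1.0) with FastQC and MultiQC, and hg19 was named. The authors compared groups with DESeq2. The deposited signal is the authors' mean of normalized counts over both sides of a table. The deposited columns of the authors' own comparison (log2 fold change, standard error, p-value, adjusted p-value, status, and the mean of each side) were not used.

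Means for 1 h and 22 h stood without a decimal mark. Each was given the power of 10 nearest to that entry's mean in the third table (1506 of 1610 and 1323 of 1335 entries), and 1 power more where a mean fell under 10 (15 entries at 1 h). In both tables with DOX 22 h, each mean could be written as whole reads of 2 libraries times fixed coefficients, within a tolerance of 1e-05, in 1323 of 1323 and 2369 of 2369 entries above 0. No such step was found at 1 h.

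The coefficients of the libraries were chosen from the values. All 128 assignments of coefficients were tried. In 96 of them the third table could refuse the reads found at 22 h. With coefficients of 731 (DOX 22 h) and 822 (DMSO 22 h), then 9 (DOX 22 h) and 7 (DOX 1 h), 1052 of 1052 entries with 1 solution passed, where 14.3% would by chance, and the next best of the 96 passed 18.8%. The other 32 leave no remainder and cannot be refused in this way. Of these, 8 were met by every entry with 1 solution, but only 1 of the 8 gave every entry a solution, and it left the shared library with 0 reads. The shared library was taken as DOX 22 h because that is the group both comparisons name. Names of unannotated entries in these tables carry the label of replicate 1. Whether a side is 1 library or several merged before counting cannot be told apart. The 107 entries with several solutions, with means of at least 5104, were left out.

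Reads were summed by precursor and arm, where a gap of over 15 bases between starts separated arms, and compared between libraries with exact Clopper-Pearson intervals. No p-value was computed. The rule for named genes took every member precursor, the entries of each member arm (at most 5 where an arm had over 12), both p53 lists, and the 3 arms with the nearest pair of ratios. Members and lists were chosen with earlier results of these data known. Alternatives covered the entry used, scaling, centring, an added count of 0.5, shared sequences, the fold limit and the read minimum. Python 3.11.15, numpy 2.4.6, scipy 1.17.1 and matplotlib 3.10.9 were used.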

Additional observations from a re-analysis of the deposited data

How the results depend on the processing

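No paired analysis was possible because the tables give no values per sample, although the labels share replicate numbers. Of 50 alternative values of the library ratios, 49 lay within the counting interval of the reported value. The exception was miR-192-5p for DOX 22 h over DMSO 22 h, 0.91 from its most abundant entry alone, which begins at position 25, against -0.05. Some of the 49 could not differ, since hsa-mir-34a, hsa-mir-34c and hsa-mir-192 share no recovered sequence with another precursor, and hsa-mir-34c had 1 recovered entry. Scaling and centring moved all ratios of a comparison alike, by 0.0608 log2 units or less. The count of 49 is therefore not a measure of robustness. Over DOX 1 h, scaling decided whether the intervals of miR-34a-5p, miR-192-5p and hsa-mir-194-2 held 0, as given with their values. No interval over DMSO 22 h changed in this way when scaled by total recovered reads or centred on the median. Values near 0 also changed sign: miR-192-5p was 0.01 when scaled by total recovered reads, and hsa-mir-194-1 over DOX 1 h was 0.06 with shared sequences counted once. That count also took hsa-mir-194-1 from 0.15 to 0.48 over DMSO 22 h, inside its interval. Yet the shared sequence of 20 bases, summed over both precursors, had an interval above 0 there (0.52, 0.22 to 0.82).

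The share of entries past the fold depended on the limits. For DOX 22 h over DMSO 22 h it was 11.5% at an absolute log2 ratio of 1, 7.83% with at least 100 reads and 11.6% for sums per arm, against 18.2%. For DOX 22 h over DOX 1 h it was 7.14%, 4.03% and 7.17%, against 12.4%. Fewer reads per entry widen the counting error, and the cause was not tested further. Of 30 alternative levels of whole arms, 29 lay within 10% of the reported level, a limit chosen after seeing the data. The other was miR-192-5p in the third table, 28.0 ppm when means under 10 were left out, against 32.9. At 1 h and 22 h no mean lay under 10, so leaving such means out could not change a level there. In the third table miR-34c-5p fell from 9.21 to 8.34 ppm in the same way. The count of 29 is therefore not a measure of robustness. Restoring the power of 10 without the minimum of 10 was also chosen after seeing the data. With 1 library a side, depth limits only counting error, and the spread between replicates is unknown.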
